A study of Macaca mulatta with 161 samples.

Results

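Keratins 7, 8, 18 and 19 are the filament proteins of simple, single-layered epithelia, and their genes KRT7, KRT8, KRT18 and KRT19 were taken by symbol from a table of 16049 genes in single rhesus monkey (Macaca mulatta) embryo cells. All 4 had a row, among 50 rows with a keratin symbol. The table held 161 inner cells of blastocysts cultured from fertilised oocytes of hormone-stimulated females. There were 44 cells of the early blastocyst (small cavity, about embryonic day 5), 39 of the middle blastocyst (day 5.5), 52 of the late blastocyst (fully expanded cavity, day 6) and 26 of the hatching blastocyst (day 7, described as already out of the zona pellucida in the culture protocol). The labels name no treatment or genetic alteration. Inner cells were those that stayed dark when the outside of the whole embryo was stained with the membrane dye PKH26, and round cells were picked singly, so the dye and the morphology defined the population. No embryo, animal or culture is named for any cell. Each stage is therefore 1 sample, the SDs given are between cells, and no p-value was computed.

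Keratins assemble only in pairs, a basic type II chain (KRT8 or KRT7) with an acidic type I chain (KRT18 or KRT19), and a chain without its partner is usually degraded. KRT8 and KRT18 are the earliest keratins of the mammalian embryo and mark its first epithelium, the trophectoderm, which later forms the placenta. KRT7 and KRT19 join them in ducts, trophoblast and other simple epithelia. Inside the blastocyst the inner cells separate into epiblast, which makes NANOG and gives rise to the fetus, and primitive endoderm, which makes SOX17 and becomes an epithelium lining the cavity.

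The cells held a median of 11.9 M reads (M, mega), as recovered from the table (3.15 to 20.1 M), with stage medians between 11.2 and 12.8 M, and a median of 6998 genes at an FPKM (fragments scaled by gene length and depth) of at least 1. At the median depth, 1 FPKM stood for 16.2 to 22.9 reads of each keratin. A value of at least 1 FPKM is called detected, and intervals are exact Clopper-Pearson 95% intervals that cover counting error only. NANOG, the epiblast marker, was detected in all cells of the early, middle and hatching stages and in 47 of 52 late cells. Of the trophectoderm (outer cell) markers, 20 of 21 had a row and none was at 0 in every cell. Their mean level ran from 1.42 to 3.21 log2(FPKM + 1) in early, 1.33 to 3.33 in middle, 0.67 to 3.78 in late and 0.50 to 2.89 in hatching cells. The 11 cumulus and granulosa markers never averaged above 0.77, and 5 of them were at 0 in every cell. A pair of cells stood apart in keratins, namely the early cell E9 and the late cell L13, described below with the results they touch.

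KRT8 and KRT18 were detected in every cell and, by stage mean, were among the most abundant messages of inner cells at each stage. KRT8 ran from 32.1 to 2757 FPKM in early cells (median 963), from 291 to 4125 in middle cells (median 1609), from 377 to 8030 in late cells (median 2090.4) and from 137 to 3085 in hatching cells (median 955). By mean FPKM it ranked number 77, 26, 26 and 64 of 16049 genes in the 4 stages in that order. Its ranges overlapped between all stages.

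KRT18, the usual type I partner of KRT8, ran from 27.7 to 5451 FPKM in early cells (median 1018), from 87.5 to 6808 in middle cells (median 1597), from 296 to 19894 in late cells (median 1573) and from 471 to 4853 in hatching cells (median 1324). It ranked number 55, 21, 24 and 36. These ranges overlapped between stages as well.

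KRT19 had the largest difference between stage means on the log2 scale. Its level was 0 to 319 FPKM in early cells (median 0.288), 0 to 363 in middle cells (median 1.78), 0.241 to 1124 in late cells (median 132) and 43.3 to 1669 in hatching cells (median 329.5). It was detected in 15 of 44 early cells (34.1%, interval 20.5 to 49.9%), 23 of 39 middle cells (58.97%, 42.1 to 74.4%), 47 of 52 late cells (90.4%, 78.97 to 96.8%) and all 26 hatching cells (100%, interval from 86.8%). All hatching cells exceeded the early median, and 15 of 26 exceeded the highest early cell. Its rank by mean FPKM went from 3635 in early to 143 in hatching cells.

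KRT7, the second type II chain of simple epithelia, was the least abundant of the 4 at each stage. It lay between 0 and 15.6 FPKM in early cells (median 0), 0 and 68.7 in middle cells (median 0.320), 0 and 142 in late cells (median 8.57) and 0 and 226 in hatching cells (median 63.0). Detected cells numbered 5 of 44 (11.4%, interval 3.79 to 24.6%), 15 of 39 (38.5%, 23.4 to 55.4%), 27 of 52 (51.9%, 37.6 to 65.99%) and 19 of 26 (73.1%, 52.2 to 88.4%). Each late and hatching cell held either less than 1 FPKM or at least 5.75 FPKM, with none between.

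**Figure D1:**
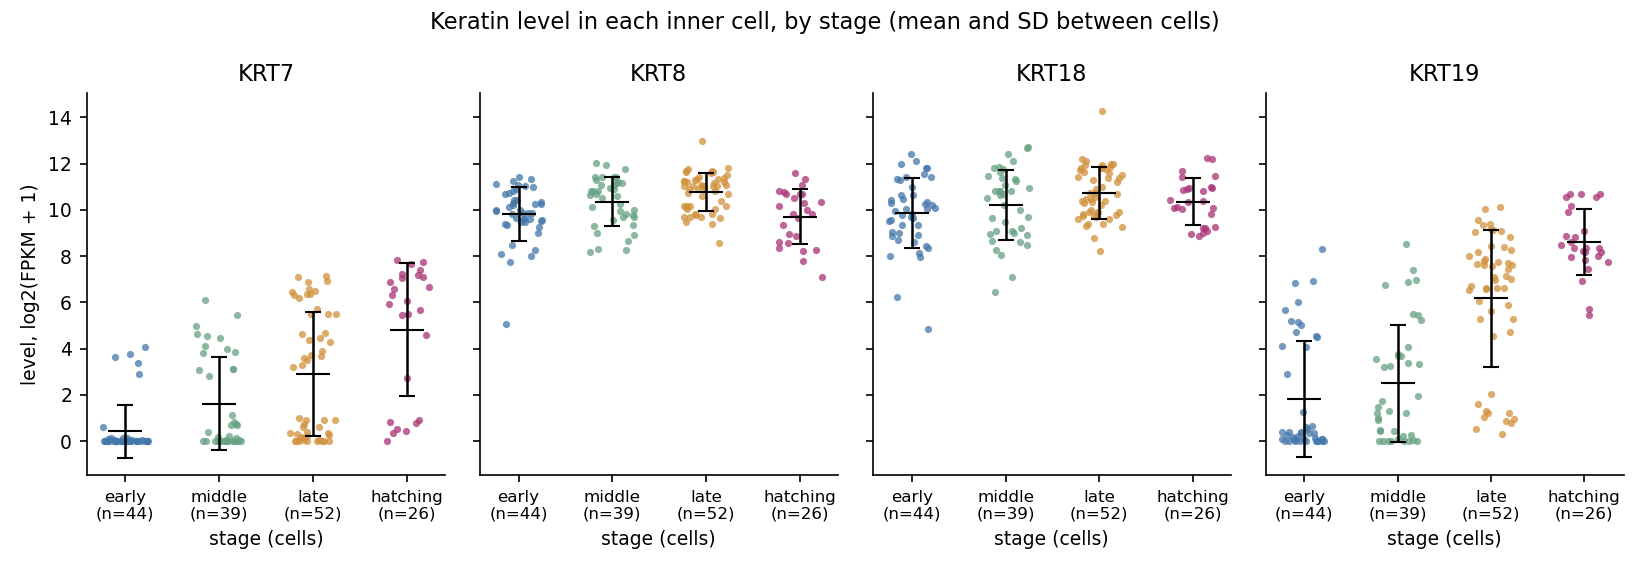
Level of KRT7, KRT8, KRT18 and KRT19 as log2(FPKM + 1) in each of the 161 inner cells (1 point per cell) at the early, middle, late and hatching stage, with the mean and SD between cells in black. KRT8 and KRT18 stay near 10 at each stage, while KRT19 means run from 1.84 to 8.61 and KRT7 means from 0.43 to 4.83.

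On the log2(FPKM + 1) scale, which understates differences of low genes, KRT19 averaged 1.84 ± 2.51 (SD, 44 cells) in early and 8.61 ± 1.42 (26 cells) in hatching cells, a difference of 6.78 against a spread between cells of 2.04. Of 9781 genes with a mean of at least 1 FPKM, 1 lay higher in this contrast. The same difference for KRT7 was 4.39 (means 0.43 ± 1.14 and 4.83 ± 2.86, spread 2.18), with 18 genes higher. The order of the pair depended on the measure: from the mean FPKM the log2 difference was 5.14 for KRT7 and 4.83 for KRT19, and with the higher title numbers alone (described below) 6.37 and 5.59. Among all these genes 11.3% were at least 1 log2 unit higher and 16.2% at least 1 unit lower in hatching cells, and the median gene differed by -0.12. KRT8 differed by -0.12 and KRT18 by 0.51, both well inside their spread of 1.18 and 1.28, and the sign for KRT8 turned to 0.08 under median-of-ratios scaling and to 0.01 with equal FPKM sums.

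Step by step, the largest distance for KRT19 lay between middle and late cells, at 3.68 (means 2.502 ± 2.53 and 6.18 ± 2.95), where 2 of the 9781 genes lay higher and 3.95% were at least 1 unit higher. KRT7 differed by 1.27 in that step and by 1.19 between early and middle cells, against 3.06% of genes at least 1 unit higher in the latter. From late to hatching cells KRT19 differed by 2.43 and KRT7 by 1.93, beside 7.26% of genes. In that last step KRT8 was lower by 1.06 (10.77 ± 0.81 to 9.71 ± 1.19), beside 9.87% of genes at least 1 unit lower, and KRT18 by 0.37. For KRT7 each neighbouring step was smaller than the spread between cells (1.64, 2.37 and 2.77). For KRT18 the same held for its steps of 0.37, 0.51 and -0.37. For KRT8 only the last step (spread 1.02) and for KRT19 only the last 2 (spread 2.75 and 2.32) exceeded it. The last step of both depended on the measure. For KRT8 it was -0.90 with median-of-ratios scaling and -0.87 from the mean FPKM, but -1.03 with equal FPKM sums and -1.13 by medians. For KRT19 it was 1.31 by medians and 1.40 from the mean FPKM, but 2.58 with median-of-ratios scaling and 2.47 with equal FPKM sums. The higher title numbers alone gave -0.65 and 2.15, the lower -1.73 and 2.81.

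**Figure D2:**
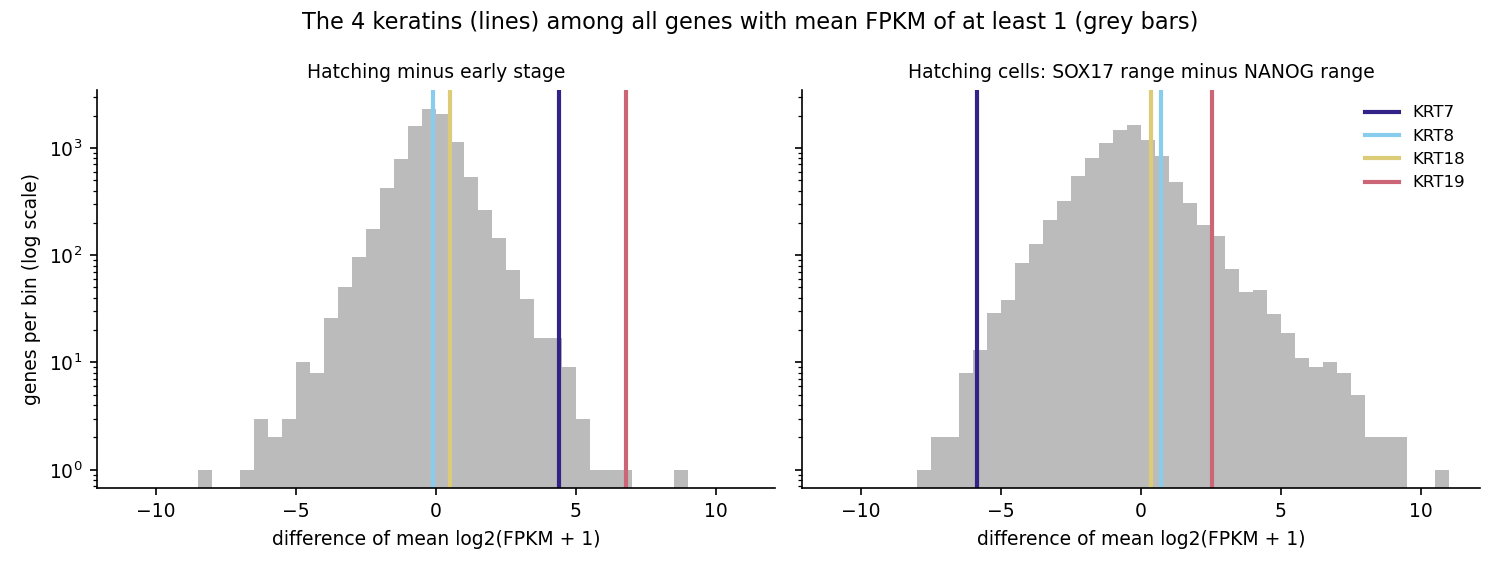
Number of genes (log scale) by the difference of their mean log2(FPKM + 1), for hatching minus early cells (left) and, among hatching cells, for cells with SOX17 minus cells with NANOG (right), over 9781 genes with a mean of at least 1 FPKM. Coloured lines mark the keratins: on the left KRT19 at 6.78 and KRT7 at 4.39 lie in the upper tail, and on the right KRT7 at -5.86 lies in the lower and KRT19 at 2.54 in the upper tail.

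The sorted titles of the cells break into a lower and a higher run of numbers within each stage, whose meaning the labels do not give, and the keratins differed between these runs. In middle cells KRT7 was detected in 15 of 25 cells with lower and 0 of 12 with higher numbers, KRT8 averaged 10.83 and 9.41, and KRT18 averaged 10.93 and 8.80. In late cells KRT18 averaged 11.61 and 10.24. In hatching cells KRT7 averaged 2.54 in the lower and 6.78 in the higher run. With the higher numbers alone the middle minus early difference was negative for all 4 keratins. It was -0.23 for KRT7, -0.39 for KRT8, -0.86 for KRT18 and -1.22 for KRT19. The lower numbers alone gave positive differences of 1.99, 0.99, 0.94 and 1.77 in the same order. The direction of that step therefore depended on the run, and no common direction can be given. With the lower numbers alone the hatching minus late difference of KRT7 was -0.76, in a run where 7 of the 12 hatching cells had SOX17 and not NANOG (ranges described next).

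Cells of the later stages were next set out by NANOG and SOX17, each at 10 FPKM, as ranges rather than cell types. The late stage held 27 cells with NANOG only, 16 with SOX17 only, 8 with both and 1 with neither, and 12 of its 52 cells lay within a factor of 2 of a threshold. The hatching stage held 19 with NANOG only and 7 with SOX17 only, with 1 cell near a threshold. In the early and middle stages 40 of 44 and 33 of 39 cells had NANOG only and none had SOX17 only. Primitive endoderm markers, 12 with a row, averaged 7.01 to 8.30 in the hatching SOX17 range and 0.18 to 2.20 in the NANOG range. SOX17 itself is among the 12, so part of this difference was fixed by how the ranges were set.

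In late and hatching cells KRT7 went with NANOG. At the hatching stage it ran from 5.75 to 226 FPKM (median 102) in the 19 cells with NANOG and from 0 to 0.902 (median 0.459) in the 7 with SOX17. The ranges did not overlap, and every SOX17 cell lay below every NANOG cell, as was so for 2.0% of the 9781 genes. Means were 6.40 ± 1.25 and 0.55 ± 0.32, a difference of -5.86, with 16 genes lower, where 33.7% of genes were at least 1 unit lower, 14.2% at least 1 unit higher and the median gene was at -0.45. With median-of-ratios scaling those shares became 25.4% and 20.6%, the median gene moved to -0.15 and KRT7 to -5.52.

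In late cells KRT7 was detected in 21 of 27 cells with NANOG (0 to 142 FPKM, median 44.5) and in 1 of 16 with SOX17, at 8.31 FPKM. The 6 NANOG cells without KRT7 held less than 1 FPKM of it each and overlapped the SOX17 cells. The difference of means was -4.07 (4.45 ± 2.47 and 0.38 ± 0.80), with 23 genes lower, beside 9.78% of genes at least 1 unit lower. The 8 cells with both genes had a mean between these, at 2.44 ± 1.998 with 4 of 8 detected, but differed by title numbers. The 3 with lower numbers averaged 4.20, all detected, beside 4.21 in the NANOG cells of that run. The 4 with higher numbers averaged 1.65, with 1 detected, beside 4.40 in the NANOG cells of that run. NANOG reached 10 FPKM in 43 of 44 early and all 39 middle cells, of which most lacked KRT7.

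KRT19 did not follow the same division. Among hatching cells it was higher with SOX17, from 954 to 1669 FPKM (median 1507), than with NANOG, from 43.3 to 539.8 (median 293). Every SOX17 cell lay above every NANOG cell, as for 1.41% of genes. The difference was 2.54 (7.93 ± 0.97 and 10.47 ± 0.31), with 403 genes higher, and 3.14 with median-of-ratios scaling. In late cells the same contrast was -0.23 (6.78 ± 2.02 and 6.55 ± 3.49), inside the spread of 2.85. The 8 late cells with both genes had the least KRT19, 0.462 to 96.2 FPKM (median 2.24), lower by 3.86 than the NANOG cells, where 9 genes lay lower and 8.86% were at least 1 unit lower. KRT7 was lower by 2.01 in those 8 cells, inside its spread of 2.24, and KRT18 by 1.02, past its spread of 0.82. KRT8 was higher by 0.15, within its spread of 0.63.

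All 7 hatching cells with SOX17 carried the lower title numbers. Within that run the 5 NANOG cells had KRT7 between 2.76 and 7.67 log2 units and the 7 SOX17 cells between 0 and 0.93. KRT19 lay between 5.47 and 8.47 in the first and between 9.90 and 10.71 in the second, so neither gene overlapped within the run. The SOX17 cells had a median of 5680 detected genes and 9.74 M reads, the 19 NANOG cells 6940 genes and 13.2 M reads, and the trophectoderm marker mean was 0.70 to 2.89 in the former and 0.50 to 1.67 in the latter. The part of depth, detected genes and these markers in the keratin differences was not tested. In late cells the KRT19 contrast was -3.12 within the lower numbers (5 SOX17 and 9 NANOG cells, means 4.68 and 7.80) and had means of 7.19 and 6.04 within the higher numbers (9 and 16 cells).

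KRT8 and KRT18 overlapped between the ranges. In hatching cells KRT8 averaged 9.52 ± 1.27 with NANOG and 10.22 ± 0.79 with SOX17, and KRT18 averaged 10.27 ± 1.04 and 10.61 ± 0.91. With median-of-ratios scaling these differences of 0.70 and 0.34 became 1.30 and 0.94. Within the lower title numbers, which held all 7 SOX17 cells, they were 1.45 (KRT8, 8.77 against 10.22) and 0.74 (KRT18). In late cells both were lower with SOX17, KRT8 by 0.43 and KRT18 by 0.87, each inside its spread of 0.78 and 0.96. Within the lower numbers KRT8 was higher by 0.06 and KRT18 lower by 0.29, and within the higher numbers KRT8 was lower by 0.77 and KRT18 by 1.27 (10.78 ± 0.80 to 9.51 ± 0.64).

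**Figure D3:**
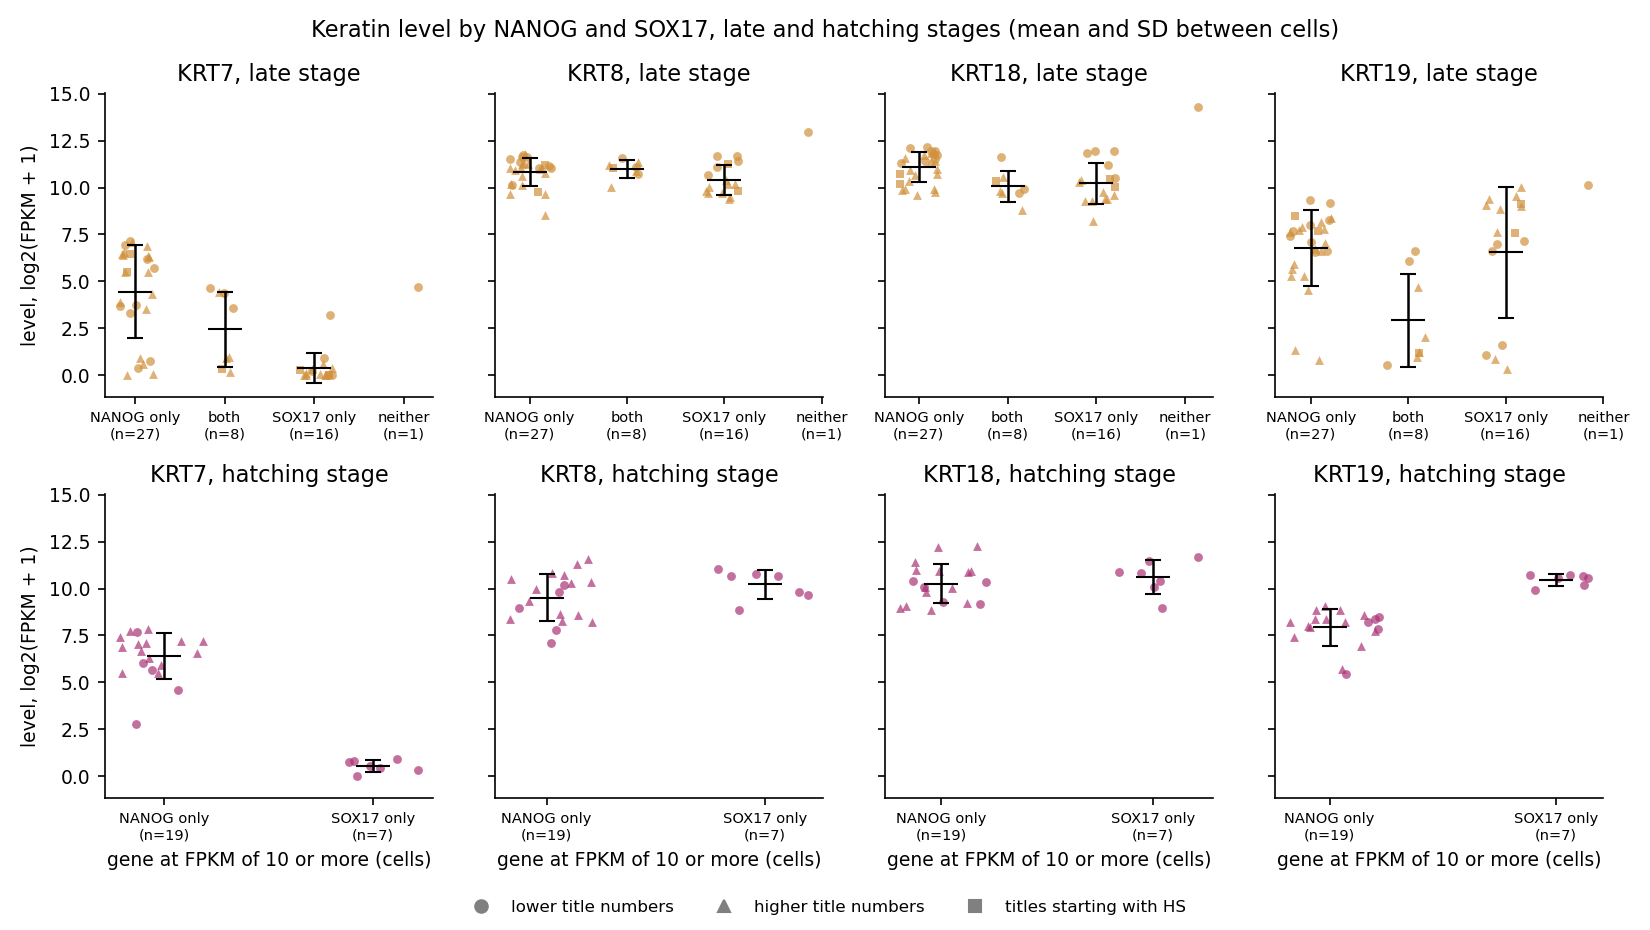
Level of the keratins as log2(FPKM + 1) in late (top) and hatching (bottom) cells, placed by whether NANOG, SOX17, both or neither reached 10 FPKM, with 1 point per cell shaped by its run of title numbers and the mean and SD between cells in black. In hatching cells the 7 SOX17 cells have KRT7 below 1 log2 unit and KRT19 of at least 9.90, whereas KRT8 and KRT18 overlap between the ranges.

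Compared across stages within a range, KRT7 was higher by 1.95 in hatching than in late NANOG cells and KRT19 by 1.15, beside 8.68% of genes at least 1 unit higher. Neither exceeded its spread (1.96 and 1.59). KRT8 was lower there by 1.32 (10.84 ± 0.77 to 9.52 ± 1.27), beside 7.72% of genes, and 5 of 19 hatching cells lay below the lowest late cell. KRT18 was lower by 0.82, inside its spread of 0.93. By run of title numbers, KRT7 was higher by 1.13 in the lower and 2.38 in the higher run, whereas KRT19 differed by -0.13 in the lower (7.80 to 7.67) and 1.98 in the higher run (6.04 to 8.02). KRT8 was lower by 2.49 in the lower and 0.86 in the higher run, and KRT18 by 1.91 and 0.37. Within the SOX17 range KRT19 was higher by 3.92 in hatching than in late cells, with 44 genes higher and 11.1% at least 1 unit higher, and 6 of 7 hatching cells exceeded all 16 late cells. KRT7 stayed near 0 in both (difference 0.16), and the KRT8 difference of -0.19 turned to 0.41 under median-of-ratios scaling. Within the lower numbers (5 late and 7 hatching SOX17 cells) KRT19 was higher by 5.79 and KRT8 lower by 1.10, past its spread of 0.64.

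The 16 late SOX17 cells differed in KRT19 by GATA3, a transcription factor known from trophectoderm, a split chosen after the values were seen. The 8 cells with GATA3 detected had 195 to 1062 FPKM of KRT19 and the 8 without had 0.241 to 191. The groups did not overlap, but only narrowly, with the nearest cells at 7.61 and 7.59 log2 units. No overlap in this direction was seen for 0.47% of genes, a share that gives no fair measure for KRT19 after such a choice. KRT8 went the other way, at 9.85 ± 0.27 with and 10.97 ± 0.75 without GATA3. None of the cells with GATA3 had lower title numbers (7 had higher numbers, 1 a title starting with HS), while 5 of the 8 without did. The 2 cells without GATA3 from the higher numbers held 0.241 and 0.812 FPKM of KRT19. Primitive endoderm markers averaged 5.36 to 7.15 with GATA3 and 4.54 to 5.60 without.

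KRT7 and KRT19 in the same cell were rare early and common later. Both were detected in 2 of 44 early, 12 of 39 middle, 26 of 52 late and 19 of 26 hatching cells. Taken singly, KRT7 was detected in 5, 15, 27 and 19 of these cells and KRT19 in 15, 23, 47 and 26. In hatching cells the count of both is thus that of KRT7. Whether both met more often than the single counts give was not tested. In the hatching NANOG range all 19 cells had both (100%, interval from 82.4%). None of the 7 SOX17 cells did (interval up to 40.96%), each having KRT19 alone. In late cells the counts were 21 of 27 and 1 of 16.

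The balance of the chains differed in hatching cells. The log2 ratio of type II (KRT7 and KRT8) to type I (KRT18 and KRT19) FPKM was -0.13 ± 0.84 in early, 0.13 ± 0.76 in middle, -0.12 ± 0.90 in late and -0.99 ± 0.56 in hatching cells. Type I was the larger in 25 of 44, 21 of 39, 32 of 52 and 26 of 26 cells in that order. KRT8 alone was below KRT18 in 25 of 26 hatching cells, by 0.65 ± 0.51 log2 units. In the other stages the pair differed on average by less than 0.15, but its order turned with the title numbers. In each of those stages KRT8 averaged below KRT18 in the lower and above it in the higher run. In middle cells KRT8 and KRT18 averaged 10.83 and 10.93 in the lower run and 9.41 and 8.80 in the higher run. The late cells with both NANOG and SOX17 leaned to type II (0.91 ± 0.51), and the hatching SOX17 cells leaned most to type I (-1.41 ± 0.51).

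KRT19 made up a median of 0.02% of the summed FPKM of the 4 genes in early, 0.18% in middle, 2.63% in late and 16.1% in hatching cells. In hatching cells its median share was 31.7% in the SOX17 range and 11.3% in the NANOG range. KRT7 reached a median of 2.96% in the hatching NANOG range. Together the 4 genes gave a median of 0.31, 0.59, 0.59 and 0.55% of all FPKM of a cell in the 4 stages. In order of level, KRT8 and KRT18 were close on average over all cells of each of the first 3 stages. KRT19 was below KRT18 by 8.01 ± 3.08, 7.71 ± 2.30, 4.54 ± 2.75 and 1.75 ± 1.47 log2 units from early to hatching. KRT7 was below KRT19 by a mean amount smaller than its spread at each stage (3.79 ± 4.01 in hatching cells). Cell by cell, KRT19 was above KRT7 in 33 of 44 early, 25 of 39 middle, 47 of 52 late and 25 of 26 hatching cells.

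**Figure D4:**
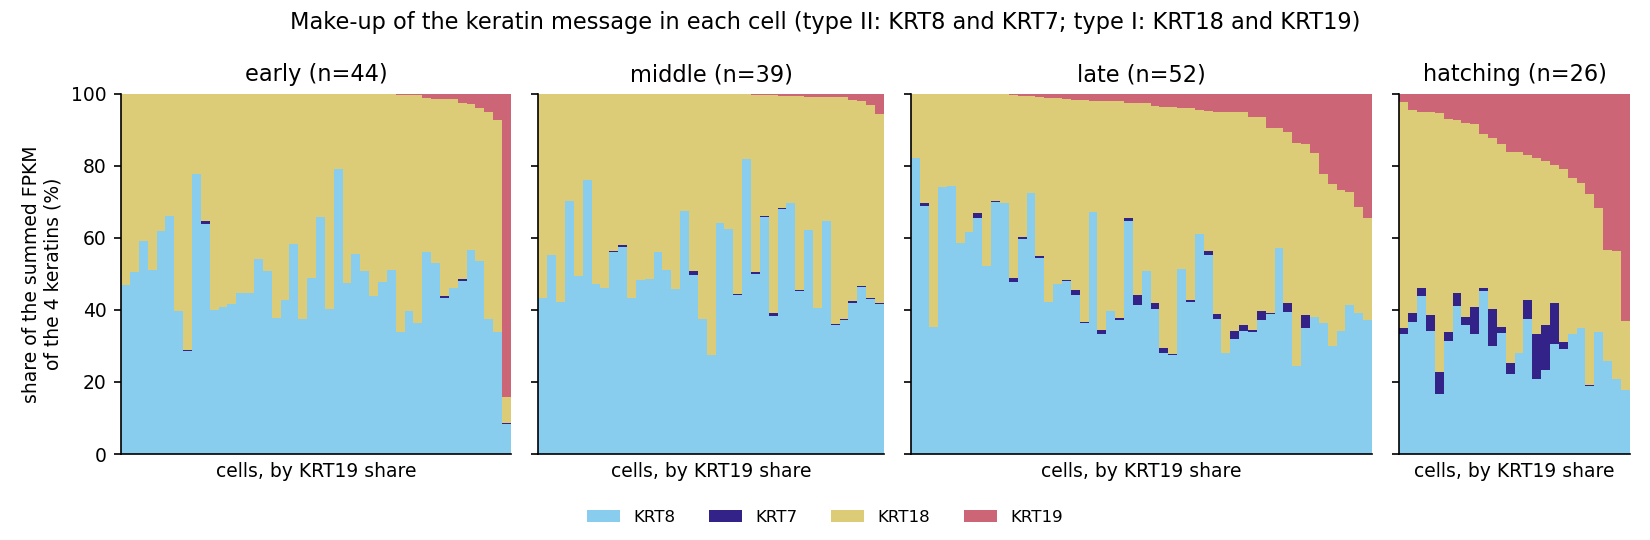
Share of each keratin in the summed FPKM of the 4 genes (%), 1 bar per cell, with cells of a stage in order of their KRT19 share. The median KRT19 share is 0.02% in early and 16.1% in hatching cells, and a single early cell (E9) stands at 84.2%.

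KRT8 and KRT18 varied together from cell to cell. Their Pearson correlation on the log2 scale was 0.91 over 44 early cells, 0.89 over 39 middle cells and 0.66 over 52 late cells (0.59 without cell L13). Within ranges it was 0.51 in the 27 late NANOG cells, 0.74 in the 16 late SOX17 cells and 0.91 in the 19 hatching NANOG cells. By title numbers it was 0.72 in the lower and 0.42 in the higher run of late cells. Without the 2 cells farthest from the KRT8 median of each run these became 0.61 and 0.36. In middle cells it was 0.89 in the lower run (25 cells) and 0.73 in the higher run (12 cells). Without the 2 farthest cells these became 0.88 and 0.21, so the value of the higher run rested on 2 cells. These values describe cells that share library preparation and depth. After subtracting stage means KRT18 was the gene most like KRT8 among 9781, and KRT8 the gene most like KRT18 (0.84 over 161 cells). In the RefSeq annotation of the assembly T2T-MMU8v2.0 they are also neighbouring coding genes on chromosome 11, although keratins of opposite type otherwise lie in separate clusters. KRT7 is on the same chromosome, and KRT19 is on chromosome 16 between KRT15 and KRT9. KRT7 and KRT19 correlated at 0.10 over the early and 0.61 over the middle cells. Their correlation was 0.33 in the late NANOG cells, 0.07 in the late SOX17 cells and 0.10 in the hatching NANOG cells.

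**Figure D5:**
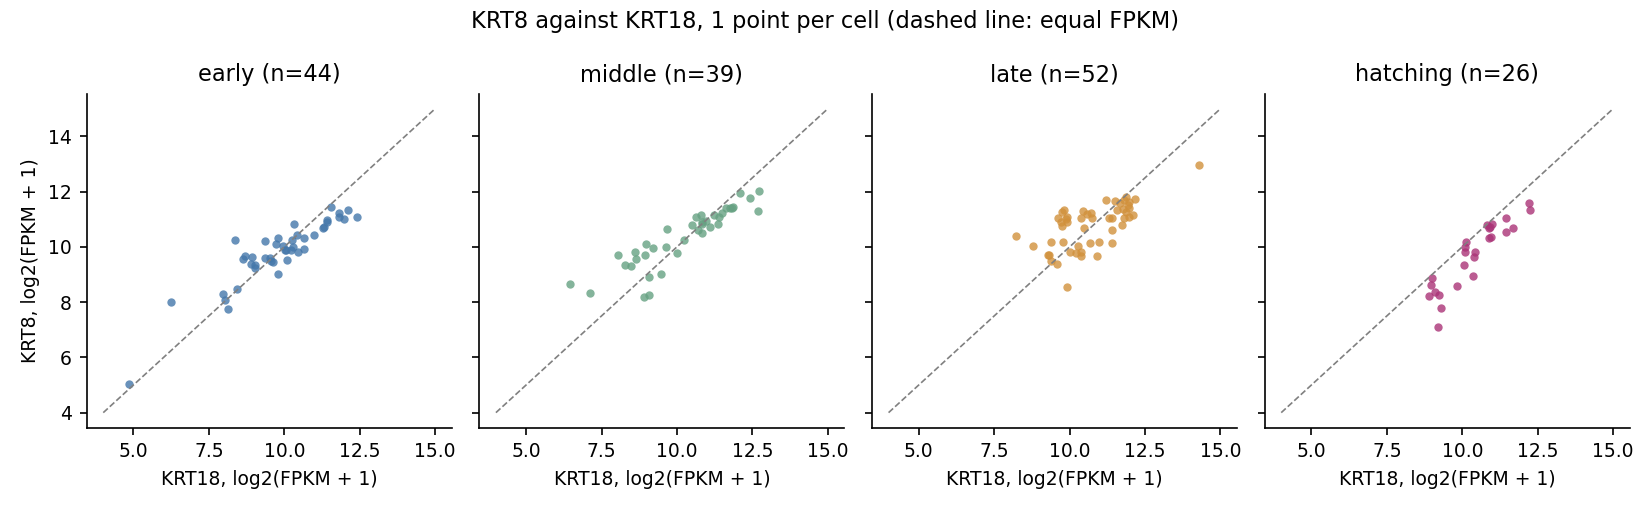
KRT8 against KRT18, both as log2(FPKM + 1), 1 point per cell in a panel per stage, with a dashed line where both are equal. Cells high in KRT18 tend to be high in KRT8, with a Pearson correlation of 0.91 in early, 0.89 in middle, 0.66 in late and 0.91 in hatching cells. In hatching cells 25 of 26 lie below the line, on the side of KRT18.

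Within ranges the keratins bore varied relations to the lineage genes. KRT7 and NANOG correlated at 0.56 in the 27 late NANOG cells (0.54 without the 2 cells farthest from the median) and at -0.04 in the 19 hatching NANOG cells. KRT8 and NANOG correlated at 0.61 over the early cells, but at 0.31 without cell E9. With CDX2, a trophectoderm factor, KRT8 stood at -0.81 in the late SOX17 cells and at 0.68 in the hatching NANOG cells. In the late SOX17 cells KRT8 also differed between the lower and higher title numbers, with means of 11.31 and 9.88.

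Cell E9, the only early cell in which NANOG was under 10 FPKM (6.45), had the lowest KRT8 (32.1 FPKM) and KRT18 (27.7) and the highest KRT19 (319) of its stage, at the lowest depth of the stage (6.35 M reads). Its CDX2 and GATA3 were both at 0.27 log2 units. Cell L13, the only late cell below 10 FPKM of both NANOG and SOX17, had the highest KRT8 (8030 FPKM), KRT18 (19894) and KRT19 (1124) of its stage, with CDX2 at 8.28 and GATA3 at 7.33 log2 units, the highest trophectoderm marker mean (3.78) and the lowest depth of all cells (3.15 M reads). Without both cells every stage difference of the 4 keratins kept within the spread between cells of its value with them. Neither cell belonged to a range that was compared, so the range differences could not change.

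Genes most like each keratin over all 161 cells were chosen by Pearson correlation. For KRT7 these were FGF13 (0.77), ZSCAN10 (0.74), FXYD5 (0.73), WNT5B (0.69) and SDPR (0.68). With stage means subtracted NANOG (0.61) came after FGF13 (0.66) and ZSCAN10 (0.63), with FXYD5 (0.61) and TIGD3 (0.57) next, and MARCKS (-0.63), CDH2 (-0.61) and LAMC1 (-0.59) were lowest. ZSCAN10 is a pluripotency-associated zinc finger gene and CDH2 is N-cadherin. For KRT19 they were CALD1 (0.74), the actin-binding caldesmon, SPARC (0.66), ARHGAP29 (0.65), LGALS1 (0.65) and PKM (0.63). With stage means subtracted CALD1 remained first (0.52), PKM (0.41), ARHGAP29 (0.39), EFNB2 (0.39) and PDLIM2 (0.38) followed, and BCLAF1 (-0.40), IL6ST (-0.39) and STOM (-0.39) were lowest.

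For KRT8, apart from KRT18, the leading genes were EZR (0.53), which encodes the microvillus linker ezrin, NLRP2 (0.51), SH3BGRL2 (0.47), S100A10 (0.47) and N4BP3 (0.46). With stage means subtracted they were S100A10 (0.50), NLRP2 (0.47), EZR (0.46), DAG1 (0.46) and SH3BGRL2 (0.43), with PHLDA2 (-0.43), PRAMEF2 (-0.40) and PRAMEF20 (-0.39) lowest. For KRT18, with stage means subtracted and apart from KRT8, the list overlapped that of KRT8, with S100A10 (0.51), DAG1 (0.50), SH3BGRL2 (0.48), N4BP3 (0.48) and SCD5 (0.47) leading and COX5B (-0.39), SLC4A5 (-0.38) and PRAMEF20 (-0.38) lowest.

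Other keratins were almost silent. Of the 46 further keratin rows 22 were at 0 in every cell, 31 never reached 1 FPKM, and 4 had a mean of at least 1 FPKM. Those detected in at least 10 cells were KRT23 (39 of 161 cells), KRT15 (18) and KRT20 (18), and none of the 4 differed by 1 log2 unit between early and hatching cells (median -0.23, all genes -0.12). Among 9 other intermediate filament genes 2 were higher and 1 lower by at least 1 unit in hatching cells (median 0.21), beside 11.3% and 16.2% of all genes. The neurofilament gene NEFL was lower by 3.41 (6.15 to 2.75) and detected in 43 of 44 early and 19 of 26 hatching cells. DES, the muscle filament gene desmin, was higher by 2.31 (0.47 to 2.78), VIM, the mesenchymal vimentin, by 1.08 (0.08 to 1.16), and NEFM was lower by 0.83.

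Of 13 genes of desmosomes, the junctions that anchor keratin filaments, and keratin linkers 2 were higher and 3 lower in hatching than in early cells (median -0.07), beside 11.3% and 16.2% of all genes. The plaque genes PKP3 and DSP were higher by 1.74 and 1.19, and the desmosomal cadherin genes DSC2 and DSG2 lower by 1.53 and 1.24. Between SOX17 and NANOG hatching cells 6 of the 13 were higher and none lower (median 0.98, all genes -0.45), beside 14.2% and 33.7% of all genes, including PKP3 by 4.02 and DSP by 1.86. With median-of-ratios scaling 11 were higher, beside 20.6% of all genes.

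Of 9 keratin-binding genes 1 was higher and 1 lower in hatching than in early cells (median -0.09), shares near the 11.3% and 16.2% of all genes. HSPB1, a small heat shock protein that binds keratin filaments, was higher by 4.61 (3.59 to 8.21), and TRADD, a death receptor adaptor that binds KRT18, was lower by 1.32. FAM83H was higher by 0.72 and HSPA8 lower by 0.62. In hatching cells HSPB1 was lower by 3.32 with SOX17 than with NANOG.

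Of 18 genes of epithelial junctions and polarity 3 were higher and 6 lower in hatching than in early cells (median -0.08), beside 11.3% and 16.2% of all genes. The claudin genes CLDN4 and CLDN3 were lower by 8.28 and 4.59, the E-cadherin gene CDH1 was lower by 2.36, and the occludin gene OCLN was higher by 1.85. Between the hatching ranges 11 were higher and 2 lower with SOX17 (median 1.54), beside 14.2% and 33.7% of all genes, among them OCLN by 2.55 and CLDN4 by 3.92, while CDH1 was lower by 3.69.

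Of 23 epithelial and trophectoderm transcription factor genes 2 were higher and 6 lower in hatching than in early cells (median -0.24), beside 11.3% and 16.2% of all genes. DLX3 was lower by 3.70, ELF3 by 2.67, KLF6 by 2.20, CDX2 by 2.13 and GATA3 by 0.51. Between the hatching ranges 6 were higher and 4 lower with SOX17 (median -0.05), beside 14.2% and 33.7% of all genes, with GATA3 higher by 4.01 and CDX2 by 2.58, each alongside the higher KRT19 of those cells. The part of these genes in the keratin levels was not tested.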

How the data were processed

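Per the labels' protocols, cDNA from each of the 161 cells went through PCR and paired 150-bp sequencing, and no molecular identifiers are mentioned. The authors deposited 1 table of FPKM values. FastQC, HTSeq, DESeq2 and TopHat2 2.1.0 are listed, without roles, per the submitters' processing notes. The build, the annotation and the handling of reads that match several places are not given in those sources, and KRT8 and KRT18 have processed pseudogene copies in primates, so their values are uncertain to that extent.

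FPKM values of 13857 genes (all genes above 0 in at least 2 cells) were whole multiples of a step per gene and cell (relative tolerance 2e-06), which gave recovered reads and depth. Levels are log2(FPKM + 1), a pseudocount of 1. Genes with a mean of at least 1 FPKM (9781 of 16049) served as background, and 1 log2 unit as the size that counts as called. Stages come from the labels. No 2 cells had identical values. Doublets were not called, as each cell was picked by hand. As every stage is 1 sample, no test was made. Alternatives were other pseudocounts, scalings, thresholds, averages and runs of title numbers. The read recovery and the differences were checked on simulated data. The named genes are the 4 keratins, NANOG, SOX17, CDX2, GATA3, the most and least correlated genes with a proper symbol, other keratins at 1 FPKM in 10 cells, and up to 4 members of each list with the largest difference between hatching and early cells. The keratins, lists and settings were chosen with earlier results of these data known. RefSeq names and neighbours are from T2T-MMU8v2.0. Python 3.11.15, pandas 2.3.3, numpy 2.4.6 and scipy 1.17.1 were used.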

Additional observations from a re-analysis of the deposited data

How the results depend on the processing

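Of 280 alternative values for 48 results, 249 stayed within a set limit, 29 passed it, and 2 differences of at least 1 log2 unit changed sign. The limit was the spread between cells for differences and type ratios, and the interval for shares of cells. For correlations it was 0.1, and for shares of genes a factor of 1.5. Some of the 249 could not move, because the setting left the compared cells unchanged. Examples are the ranges without cells E9 and L13, hatching minus early without HS titles, and the hatching ranges at 50 FPKM. The 2 sign changes were KRT7 from early to middle cells (-0.23 with the higher title numbers alone) and from late to hatching cells (-0.76 with the lower numbers alone). Smaller differences changed sign 12 more times within their spread. With the higher numbers alone these were KRT8 (-0.39), KRT18 (-0.86) and KRT19 (-1.22) from early to middle cells, KRT18 from late to hatching cells (0.17) and KRT19 between the late ranges (1.15). The last was also positive with thresholds of 1 and 50 FPKM (0.23 and 0.58) and a pseudocount of 10 (0.15). KRT8 between the late ranges was 0.06 with the lower numbers, KRT18 from middle to late cells -0.02 by medians, and KRT8 from early to hatching cells 0.08 and 0.01 under the other scalings. With the lower numbers alone KRT7 differed by 2.097 between early and hatching cells and by -4.79 between the hatching ranges, and KRT19 by -3.12 between the late ranges. The pseudocount moved KRT7: with 0.1 to 6.75 (hatching minus early), -6.03 (late ranges) and -7.42 (hatching ranges), and with 10 to -1.96 and -3.22 for the ranges. KRT19 moved to 4.58 (hatching minus early) with 10. The higher numbers of the hatching stage held no SOX17 cells, so the hatching ranges have no value there. Over all 16049 rows, 7.11% and 9.87% of genes were at least 1 unit higher and lower in hatching than in early cells, and shares in the other steps moved likewise by over 1.5 times, since fewer of the added low genes pass. With every cell thinned to 2.5 M reads and 1 read as the threshold, which is looser than 1 FPKM, the expected share of cells with a read was 18.3, 54.6, 75.3 and 93.9% for KRT7 and 56.96, 73.5, 98.6 and 100% for KRT19 from early to hatching. No paired analysis was possible because the result comes from no test and the numbers in the titles pair no cells.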
